A study of Homo sapiens with 4 samples.

Results

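The 10 genes described here drive cells into and through mitosis: the cyclin genes CCNA2, CCNB1 and CCNB2, their kinase partner CDK1, the CDK1-activating phosphatases CDC25B and CDC25C, the mitotic kinases PLK1 and AURKA, the APC/C co-activator CDC20 and the APC/C's ubiquitin-conjugating enzyme UBE2C. They were chosen by name, with earlier results of these data known, so shares of all genes set beside them below are descriptions only. Each was matched to 1 array feature by its single platform gene symbol, so that 10 of the 18417 measured genes are covered. Expression was measured in HCE cells, listed in the labels as a cell line of undifferentiated cells, 48 hours after transfection with siRNA at 20 nM. The scramble control group (2 arrays) received a non-targeting pool of siRNAs, and the siKLF7 group (2 arrays) received a pool against KLF7, a zinc finger transcription factor studied here for its part in the corneal epithelium. Both groups were grown in the same medium, were plated at 100000 cells per well, and no other agent is named in the labels. An siRNA pool lowers a transcript without removing its gene, and 1 pool stands for KLF7 here. Since no label tells whether replicate arrays had cultures of their own, the p-values speak of the variation among these 4 samples alone, and that variation may be technical.

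As background, cyclin A and cyclin B bind CDK1, and the cyclin B complex commits a cell to mitosis once CDC25 phosphatases remove the inhibitory phosphates that WEE1-type kinases had placed on it. PLK1 and AURKA reinforce that switch and build the spindle. The anaphase-promoting complex (APC/C), a ubiquitin ligase switched on by CDC20 and supplied with ubiquitin by UBE2C, then marks cyclins and securin for destruction, which ends mitosis. Transcripts of these genes are known to peak in G2 and mitosis and to be low in resting cells, and in the corneal epithelium dividing cells lie in the basal and limbal layers. In a bulk sample, a larger share of cells in G2 or mitosis and more transcript per cell cannot be told apart.

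Scramble control replicate 1 stood apart from the other arrays. Across genes it correlated with them at r = 0.934 to 0.938, while the other 3 correlated with each other at 0.990 to 0.994. For that reason 2 fits are reported, one of all 4 arrays and one of 3 arrays, in which the siKLF7 arrays were set against scramble control replicate 2 alone. KLF7 signal was 4649 and 2911 in scramble control replicates 1 and 2 and 1492 and 1122 in siKLF7 replicates 1 and 2. The groups did not overlap, and KLF7 stood at 35.5% of the control level with 4 arrays (limma adjusted p = 0.639) and at 44.8% with 3 arrays (limma adjusted p = 1.2e-09). The basal epithelial keratin KRT5 (named after its values were seen) was bright on every array, at 11828 to 13575. The corneal keratin KRT12 gave 1570 in scramble control replicate 2 and 2434 and 3136 in the siKLF7 arrays, but 67.7 in scramble control replicate 1, and its partner KRT3 was near 0 on that array alone. Of the 10 matched epithelial markers, 3 were higher in scramble control replicate 1 than in replicate 2. The basal integrin ITGA6 gave 6529 in scramble control replicate 1 and 3290 in replicate 2. KRT18 and CDH1 (both named after their values were seen) gave 3199 and 3939 against 2306 and 3262. All the others were lower in replicate 1, such as the keratin KRT15, at 265 against 1053. Fibroblast and keratocyte markers had a summed signal of 2457 in scramble control replicate 1 against 1051 to 1108 on the other 3 arrays, a gap that lay in 2 genes, POSTN and THY1 (THY1 named after its values were seen, at 752 against at most 111). Vascular endothelial markers summed to 2060 to 2207 in control and 1824 to 1947 in siKLF7 arrays, and leukocyte markers to 1910 to 2256 and 1730 to 1781. Of the 10 fibroblast and keratocyte markers, 7 had both siKLF7 arrays below both controls and 1, LUM, had both above. Their median log2 difference was -0.22 with 4 arrays and -0.14 with 3 arrays. Against that direction, LUM and POSTN stood at 0.64 and 0.86 with 3 arrays. The LUM signal did not exceed 63.5 on any array, and POSTN gave 678 in scramble control replicate 1 and 25.4 to 77.4 on the rest. With 3 arrays the median log2 difference of the 10 matched epithelial markers was 0.25, against -0.04 over all genes. The epithelial markers KRT15, KRT12, KRT3 and ITGA6 stood at 0.85, 0.81, 0.57 and 0.43. Both siKLF7 arrays were above both controls for 6 of the 10 epithelial markers and below both for 0. Over all genes these shares were 16.3% and 28.9%. The part of cell makeup in the results below was not tested.

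Promoter sequence is shown because most of these genes are known to share a cell-cycle element. RefSeq promoter windows (GRCh38.p14, from 250 bases before to 50 after a transcription start) were available for 8 of the 10, all but AURKA and UBE2C. They were searched on both strands for the cell-cycle homology region (CHR; TTTGAA or TTCGAA, the reverse strand of the first reading TTCAAA), for the CCAAT box bound by NF-Y (CCAAT, reverse ATTGG) and for the CACCC core recognised by KLF factors (reverse GGGTG). Stretches of 100 bases directly before the start are given for genes with 1 start, and of 30 bases that hold the CHR for genes with several. Capitals mark CHR and CCAAT matches, and each is read 5′ to 3′ on the gene's own strand.
CCNA2 promoter (chr4:121823884-121823983, minus strand): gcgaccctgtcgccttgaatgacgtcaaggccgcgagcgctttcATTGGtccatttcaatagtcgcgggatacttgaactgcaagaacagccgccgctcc
CCNB1 promoter (chr5:69167050-69167149, plus strand): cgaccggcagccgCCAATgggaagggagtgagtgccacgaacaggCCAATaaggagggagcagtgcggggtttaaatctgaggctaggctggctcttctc
CCNB2 promoter (chr15:59105046-59105145, plus strand): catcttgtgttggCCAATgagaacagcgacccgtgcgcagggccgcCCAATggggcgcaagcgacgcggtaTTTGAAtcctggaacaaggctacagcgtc
CDK1 promoter (chr10:60778448-60778477, plus strand): ccctttagcgcggtgagTTTGAAactgctc
CDC25B promoter (chr20:3796260-3796289, plus strand): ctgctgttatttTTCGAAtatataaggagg
CDC25C promoter (chr5:138331817-138331846, minus strand): gctggcggaaggTTTGAAtggtcaacgcct
PLK1 promoter (chr16:23678789-23678888, plus strand): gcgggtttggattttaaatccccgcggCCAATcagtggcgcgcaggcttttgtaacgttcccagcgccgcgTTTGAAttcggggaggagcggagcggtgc
CDC20 promoter (chr1:43358881-43358980, plus strand): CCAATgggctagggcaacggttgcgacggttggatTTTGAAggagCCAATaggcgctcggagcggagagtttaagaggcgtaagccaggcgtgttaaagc

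A CHR match was found for 6 of the 8 genes, against 19.5% of the 27305 genes with a window, and a CCAAT match for 8 of 8, against 39.7%. The 6 with both in 1 window were CCNB2, CDK1, CDC25B, CDC25C, PLK1 and CDC20, against 7.85% of all genes. In CCNB2 and PLK1 the CHR began 29 bases before the start. In CDC25C it began 30 and in CDC25B 38 bases before 1 of 4 starts. The other genes did not share this position. In CDC20 matches began 178 and 65 bases before the start. In CDK1 they began 69 and 13 bases before 1 start and 161 before its other start. Matches after a start were also found for CDK1 and CDC25C. The CACCC core, found for 63.1% of all genes, matched in 5 of the 8 (CCNB1, CCNB2, CDK1, CDC25B and CDC25C). A gene with several starts has more windows in which a short motif can match, and these matches describe letters only. A gene without a CHR match may hold another form of the element, which was not searched for.

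**Figure D1:**
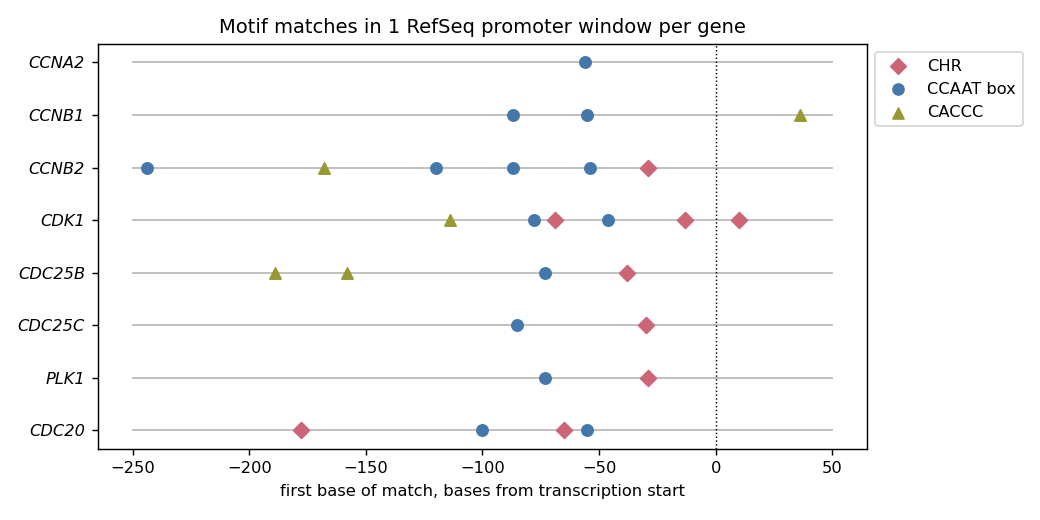
Positions of CHR (diamonds), CCAAT box (circles) and CACCC (triangles) matches in 1 RefSeq promoter window for each of 8 genes, in bases from the transcription start at 0 (dotted line). For genes with several starts the window drawn is the one whose CHR lies nearest before the start. CCNA2 and CCNB1 have no match to the CHR letters searched, and other forms of the element were not searched for.

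The question was whether these mitotic genes differed between KLF7-depleted and control cells. Both cyclin B genes stood above both controls, and above the mean of the controls by 1.46-fold for CCNB2 and 1.39-fold for CCNB1. CDK1, CDC25C, CCNA2 and UBE2C lay above both controls by smaller margins, and AURKA, PLK1, CDC20 and CDC25B lay between the controls. With 4 arrays none of the 10 passed limma's test (adjusted p = 0.639 to 0.973; 2 at an unadjusted p under 0.05, CCNB1 and CCNB2), and 0% of all genes passed. At that unadjusted p, 1.90% of all genes were higher and 3.90% lower. With 3 arrays CCNB1, CCNB2 and CDK1 rose and none fell, 3 of 10 members, against 0.885% of all genes that rose (1.03% among the brighter 50% of genes) and 0.690% that fell. The members' median log2 difference was 0.21 with 4 arrays and 0.32 with 3 arrays, against -0.05 and -0.04 over all genes.

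**Figure D2:**
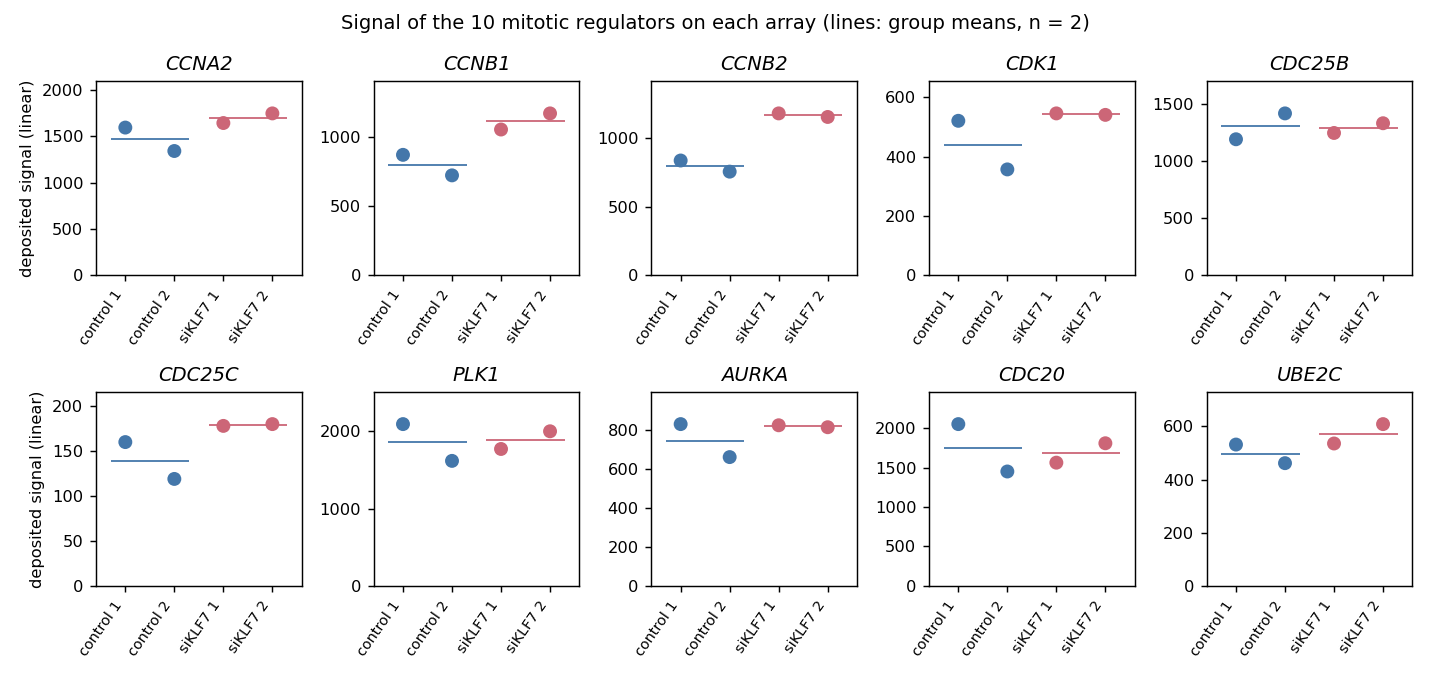
Deposited signal (linear, each axis from 0) of each of the 10 genes on the 2 scramble control (blue) and 2 siKLF7 (red) arrays; points are single arrays and lines are group means. CCNB1 is at 1058 and 1175 on the siKLF7 arrays and at 874 and 725 on the controls, whereas the PLK1 and CDC20 signals of the siKLF7 arrays lie between those of the controls.

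CCNB2, a B-type cyclin of the Golgi and cytoplasm, gave signals of 835 and 754 in scramble control replicates 1 and 2 and 1178 and 1152 in siKLF7 replicates 1 and 2, the order used below. Both siKLF7 arrays were above both controls, and the gap between groups was wider than that within either group. For CCNB2 the log2 difference came to 0.54 (SE 0.14, 95% interval 0.19 to 0.90, adjusted p = 0.639) with 4 arrays and 0.62 (SE 0.15, limma adjusted p = 0.0078) with 3 arrays. With scramble control replicate 1 as the lone control in place of replicate 2, CCNB2 rose by 0.47 (SE 0.15, limma adjusted p = 0.0089). It was the only member to pass in that fit, in which 13.4% of all genes rose, and so the only one to pass against each control alone. The controls of CCNB2 differed by 0.14, the smallest difference among the 10 genes.

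CCNB1, the cyclin that carries CDK1 into the nucleus at mitotic entry, gave 874 and 725 in control and 1058 and 1175 in siKLF7 arrays. The lower siKLF7 array of CCNB1 was 0.27 (log2) above the higher control. The siKLF7 mean was higher by 0.48 (log2; SE 0.16, 95% interval 0.05 to 0.90) with 4 arrays, and CCNB1 rose by 0.61 (SE 0.15, limma adjusted p = 0.01) with 3 arrays, a call lost with a prior that had no trend (adjusted p = 0.055). CCNA2, the cyclin of S phase and G2, gave 1594 and 1341 in control and 1643 and 1747 in siKLF7 arrays. The siKLF7 replicate 1 value of CCNA2 was only 0.04 (log2) above scramble control replicate 1, against a difference of 0.25 between the controls. CCNA2 did not pass at 0.21 (SE 0.15) with 4 arrays or at 0.33 (SE 0.13, limma adjusted p = 0.258) with 3 arrays.

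CDK1, the kinase of these cyclins, gave 521 and 357 in control and 546 and 541 in siKLF7 arrays. Both siKLF7 values of CDK1 lay just above scramble control replicate 1, by 0.06 and 0.05 (log2), and 0.59 and 0.58 above replicate 2, and the controls differed from each other by 0.53. With 4 arrays the difference was 0.32 (SE 0.21, 95% interval -0.24 to 0.89), and with 3 arrays CDK1 rose by 0.59 (SE 0.16, limma adjusted p = 0.036). CDK1 passed only where scramble control replicate 2 was the lone control, and there not with a prior that had no trend (adjusted p = 0.064).

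CDC25C, a phosphatase of CDK1 that acts at mitotic entry, gave signals of 160 and 119 in control and 178 and 180 in siKLF7 arrays. Both siKLF7 arrays were above both controls, by 0.14 or more. The difference of CDC25C was 0.34 (SE 0.16) with 4 arrays and 0.53 (SE 0.16, limma adjusted p = 0.075) with 3 arrays, which did not pass; it did with 3 arrays after quantile normalization (adjusted p = 0.011) or median centring (adjusted p = 0.043). CDC25B, the phosphatase that starts CDK1 activation in late G2, gave 1188 and 1414 in control and 1243 and 1328 in siKLF7 arrays. The siKLF7 arrays of CDC25B lay between the controls, and it was the only member whose signal was lower in scramble control replicate 1 than in replicate 2. Its difference was -0.01 (95% interval -0.41 to 0.38) with 4 arrays and -0.14 (95% interval -0.41 to 0.14) with 3 arrays.

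The mitotic kinases did not pass in either fit. PLK1, the Polo-like kinase, gave 2094 and 1618 in control and 1772 and 2001 in siKLF7 arrays, so that both siKLF7 values lay within the span of the controls. Its difference was 0.03 (95% interval -0.44 to 0.50) with 4 arrays and 0.22 (95% interval -0.04 to 0.47) with 3 arrays. AURKA, the Aurora kinase of centrosomes and spindle poles, gave 829 and 660 in control and 823 and 813 in siKLF7 arrays. The siKLF7 values of AURKA matched scramble control replicate 1 within 0.03 (log2) and exceeded replicate 2 by 0.31 and 0.30. The difference was 0.14 (SE 0.17) with 4 arrays and 0.30 (SE 0.15, limma adjusted p = 0.452) with 3 arrays.

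CDC20, the APC/C co-activator, gave 2052 and 1451 in control and 1563 and 1809 in siKLF7 arrays. Its siKLF7 arrays lay between the controls, which differed by 0.50 (log2), and the sign of its difference turned with the control, from -0.28 against scramble control replicate 1 to 0.21 against replicate 2. With 4 arrays the 95% interval was -0.60 to 0.52. UBE2C, the enzyme that starts ubiquitin chains on APC/C targets, gave 532 and 462 in control and 536 and 609 in siKLF7 arrays. Both siKLF7 values of UBE2C were above both controls, the lower one by 0.01 (log2), and the difference was 0.20 (SE 0.15) with 4 arrays and 0.30 (SE 0.16, limma adjusted p = 0.491) with 3 arrays. RefSeq names pseudogenes of 4 members, 1 of CCNB2, 2 of AURKA, 1 of CDC20 and 5 of UBE2C, and the sources used here do not say whether an array feature also measures such copies.

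**Figure D3:**
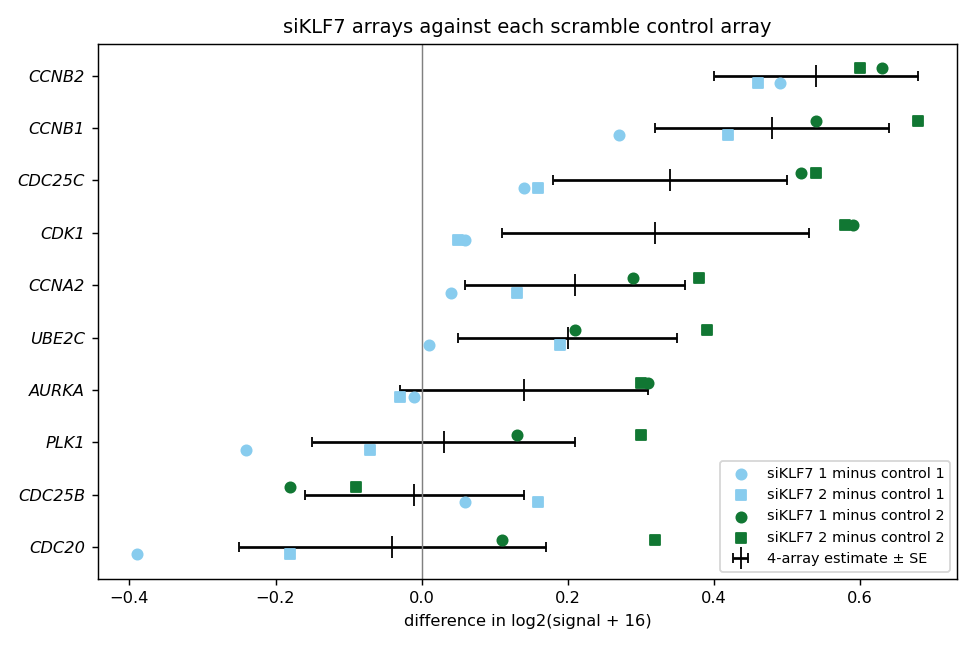
Difference in log2(signal + 16) of each siKLF7 array from scramble control replicate 1 (light blue) and replicate 2 (green), with circles for siKLF7 replicate 1, squares for siKLF7 replicate 2 and black bars for the 4-array estimate ± SE. All 4 differences of CCNB2 lie between 0.46 and 0.63, while those of CDC20 run from -0.39 to 0.32.

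Across the 10 genes, 6 had both siKLF7 arrays above both controls (CCNA2, CCNB1, CCNB2, CDK1, CDC25C and UBE2C) and 0 had both below, against 16.3% of all genes above and 28.9% below. The 16.3% was 21.8% among the brighter 50% of genes, where 9 of the members lie. The count of 6 was 5 after quantile normalization, without UBE2C, and 4 after median centring, without UBE2C and CCNA2, while the share of all genes above both controls was 18.2% under either. For a single gene the exact two-sided permutation test of 2 arrays against 2 cannot go below p = 0.333. Counts differed by control. Both siKLF7 arrays were above scramble control replicate 2 for 9 members (29.7% of all genes and 38.9% of the brighter 50%) and below it for 1, CDC25B (44.6% of all genes). They were above scramble control replicate 1 for 7 (35.2%) and below it for 3, PLK1, AURKA and CDC20 (48.2%). Scramble control replicate 1 was itself above replicate 2 for 9 members, by a median of 0.29 (log2) over the 10, against 49.2% of all genes and a median of -0.01. The median absolute difference over the members was 0.29 between the controls and 0.09 between the siKLF7 arrays, against 0.20 and 0.12 over all genes. siKLF7 replicate 2 was above siKLF7 replicate 1 for 7 of the 10, by at most 0.21.

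**Figure D4:**
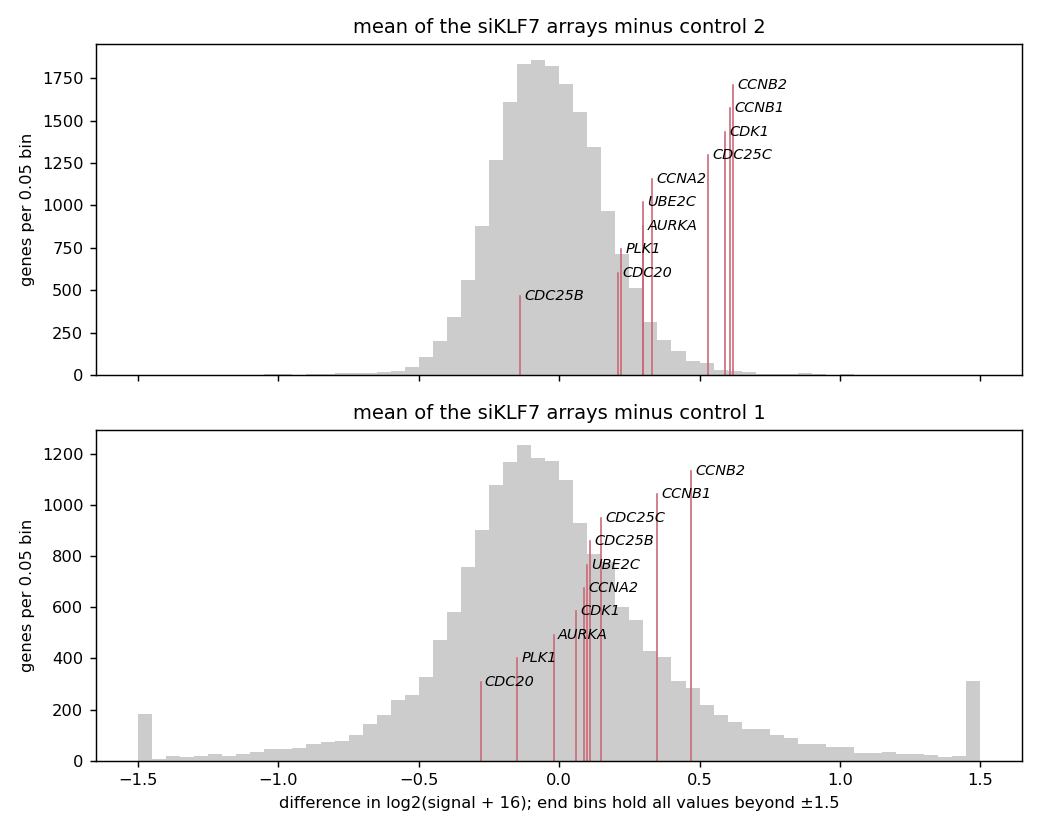
Number of genes per 0.05 bin of the log2 difference between the mean of the siKLF7 arrays and scramble control replicate 2 (top) or replicate 1 (bottom), over 18417 genes in grey, with the 10 mitotic regulators as red lines (line height only separates the labels). CCNB2, CCNB1, CDK1 and CDC25C lie at the upper edge of the top panel, at 0.53 to 0.62, but CDK1 and CDC25C lie at 0.06 and 0.15 in the bottom panel.

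Against scramble control replicate 2, 0.548% of all genes had a higher difference than CCNB2, 0.559% than CCNB1, 0.646% than CDK1 and 0.869% than CDC25C. The same share was 10.4% for PLK1 and 10.9% for CDC20. With 4 arrays the shares were larger, 3.56% for CCNB2, 4.6% for CCNB1, 9.03% for CDK1 and 8.22% for CDC25C. For PLK1 and CDC20 they were 36.8% and 48%. Ratios between members on the same array are free of a scale factor shared by the whole array, apart from the pseudocount, and a few were taken after their values were seen, with no test. From the mean of the controls, the ratio of CCNB1 to CDC20 stood at -0.12 and 0.12 (log2) in scramble control replicates 1 and 2 and at 0.54 and 0.49 in siKLF7 replicates 1 and 2, a 1.43-fold higher mean. For CCNB2 over PLK1 the values were -0.11 and 0.11 in control and 0.61 and 0.41 in siKLF7 arrays, also 1.43-fold. The arrays of the groups did not overlap for either ratio, and the siKLF7 arrays lay at least 0.30 above the higher control. Over all the ratios taken this gap ran from 0.21 (CCNB1 over CDC25B) to 0.37 (CCNB1 over CDC20). Each set a member with a larger difference over one with a smaller difference, so its direction followed from that choice. How often ratios of other genes separate the groups was not counted.

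Other genes of the pathway were taken from lists by role, and none of them passed with 4 arrays by limma. Of 12 matched relatives of the members, none was above both controls and 4 were below both, against 28.9% of all genes below both. CCNA1, a cyclin A mostly of germ cells, stood lowest with 3 arrays, at -0.81 (SE 0.16). Its signals were 46.4 and 869 in control and 467 and 508 in siKLF7 arrays, so that the siKLF7 mean was 3.01 (log2) above scramble control replicate 1. AURKB, the Aurora kinase of centromeres (named after its values were seen), lay between the controls, at 694 and 489 in control and 512 and 641 in siKLF7 arrays. The 14 subunits of the APC/C had medians of 0.17 with 4 arrays and 0.06 with 3 arrays. Of these subunits, 6 were above both controls and 1 was below both. ANAPC10, a substrate-binding subunit, stood at 0.35 (SE 0.13) with 4 arrays and 0.31 (SE 0.16) with 3 arrays.

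Of 20 regulators and cofactors of CDK1, PLK1, AURKA and the APC/C, 1 rose and 0 fell with 3 arrays, and 10 were above both controls. PTTG1, which encodes securin, the APC/C target that holds sister chromatids together, gave 493 and 559 in control and 820 and 873 in siKLF7 arrays. PTTG1 rose by 0.58 (SE 0.16, limma adjusted p = 0.027) with 3 arrays and stood at 0.67 (SE 0.14) with 4. CDKN3, a phosphatase of CDK1 and CDK2, stood at 0.49 and 0.53 (adjusted p = 0.083 with 3 arrays). ENSA and ARPP19, the paired inhibitors of the phosphatase PP2A that opposes CDK1, stood at opposite signs, ENSA at 0.67 and 0.35 and ARPP19 at -0.59 and -0.44 with 4 and 3 arrays (adjusted p = 0.104 and 0.082 with 3 arrays).

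Of 15 transcription factors of the G2/M programme 0 passed in either fit, with a median of 0.05 in both. FOXM1 and MYBL2, activators of late cell-cycle genes (both named after their values were seen), stood at -0.14 and 0.05 with 4 arrays and 0.04 and 0.07 with 3 arrays. Of 32 other G2/M and mitosis genes, 9 rose and 0 fell with 3 arrays, and 21 were above both controls; all 32 were above scramble control replicate 2. TTK, a spindle checkpoint kinase, rose by 0.68 (SE 0.16), CENPF, a kinetochore protein, by 0.62 (SE 0.15), TOP2A, the topoisomerase that untangles chromosomes, by 0.58 (SE 0.14) and NUSAP1, a spindle protein, by 0.56 (SE 0.14), with limma adjusted p = 0.009 to 0.016. With 4 arrays these 4 stood at 0.48, 0.48, 0.44 and 0.51. As for the members, scramble control replicate 1 was above replicate 2 for most of them, 25 of 32, by a list median of 0.28. In the G1/S and DNA replication list CCNE2, the cyclin of S phase entry, stood highest, at 0.66 (SE 0.16) with 3 arrays and 1.03 with 4 arrays. The list median was 0.22 with 4 arrays and 0.16 with 3 arrays. Of its 24 genes, 10 were above both controls and 1 was below both.

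**Figure D5:**
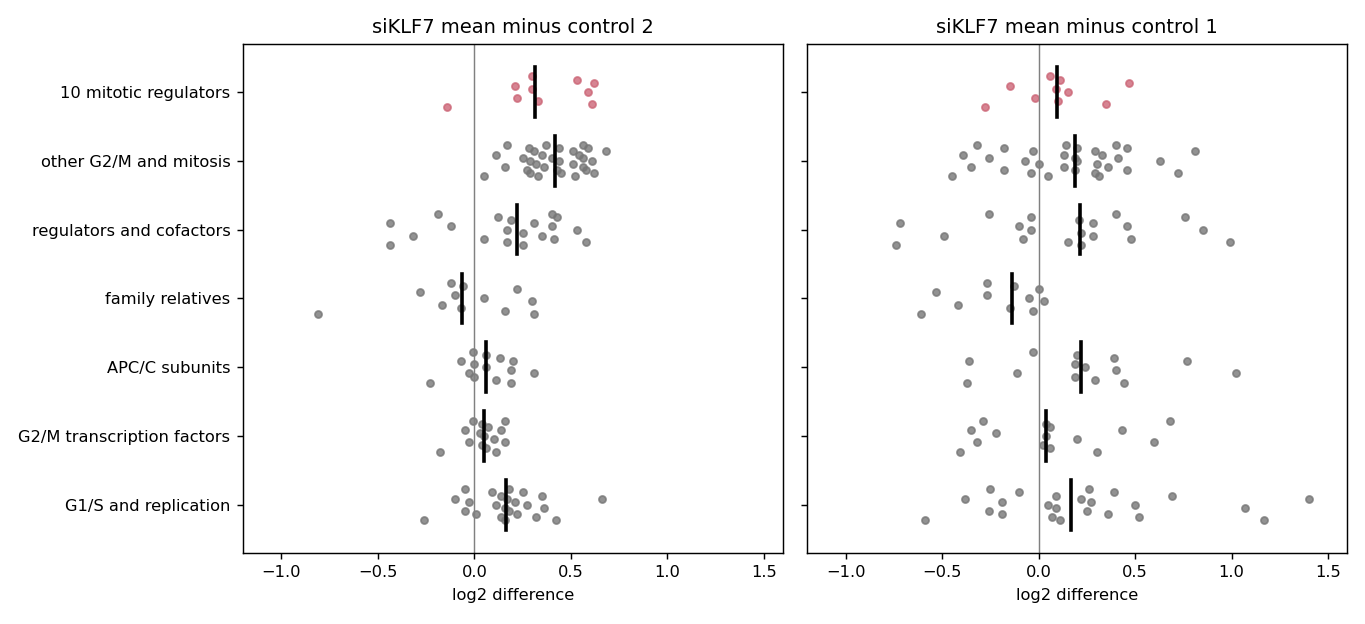
Log2 difference between the mean of the siKLF7 arrays and scramble control replicate 2 (left) or replicate 1 (right) for each gene of 7 lists, with black bars for list medians and the 10 mitotic regulators in red. The medians of the mitotic regulators and of the other G2/M genes are 0.32 and 0.42 on the left and 0.09 and 0.19 on the right; CCNA1, at 3.01 on the right, is beyond the axis.

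The genes outside these lists whose profile over the 4 arrays was nearest to the members' median profile (0.02 and -0.23 in the control and 0.07 and 0.15 in the siKLF7 arrays, log2 from the mean) were SNORD116-18, AJAP1, DPPA2 and ANKRD7, at Euclidean distances of 0.03 to 0.04. AJAP1, a junction-associated membrane protein, gave 360 and 293 in control and 364 and 390 in siKLF7 arrays. The other 3 were dim, with signals of at most 32.5 against a pseudocount of 16. With 4 arrays such a likeness is a description only.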

How the data were processed

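The members and gene lists were chosen with earlier results of these data known. The deposited intensity values of the 4 arrays (2 per group) are linear, and the submitters' processing notes name Affymetrix Expression Console 1.1.1 and PLIER 2.0. The sources used here do not state a normalization between arrays. Median signals were 185 to 194. Of 33297 features, 19460 had 1 platform gene symbol; the feature with the highest mean was used for each of 18417 genes. Values were log2(signal + 16), which shrinks differences of dim genes. limma 3.58.1 (lmFit, eBayes with trend, R 4.3.3) was fitted over all genes with Benjamini-Hochberg adjustment and a threshold of 0.05. With 4 arrays it had 2 residual and 2.63 prior degrees of freedom; with 3, 1 and 74.2, its spread coming from the siKLF7 pair, with the lone control assumed to vary alike. With 2 arrays per group precision is limited, and the spread of the 4-array fit also holds the gap between the controls. Data were simulated for 18417 genes with noise from the spread of each fit itself, so recovery cannot be compared between the fits. Changes below a log2 of 1, where all members' differences lie, were not simulated. With 4 arrays, 49% of 100 genes changed by a log2 of 2 and 4% of 100 changed by 1 were recovered. With 3 arrays, 100% of both were recovered, with 11 false calls, under noise that met that fit's assumptions.

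Named genes were the members, KLF7, up to 4 genes per list by smallest p with 3 arrays, and the 4 nearest profiles; genes named otherwise are said to be so. The alternatives were quantile normalization, median centring, filters on dim genes, other pseudocounts and priors, the mean of features, a threshold of 0.10, omission of each array in turn, and a fit blocked on the replicate number. The fits with 3 arrays under other settings were added after the data were seen. No labelled batch was available.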

Additional observations from a re-analysis of the deposited data

How the results depend on the processing

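With 4 arrays, 0 of the 10 members and 0 genes passed under every alternative that kept all arrays (1069 genes at an unadjusted p under 0.05 in limma). Leaving out 1 array gave 0 to 3 members and 0 to 4935 genes: 3 members and 290 genes without scramble control replicate 1, 1 member and 4935 genes without scramble control replicate 2, and 0 of both when siKLF7 replicate 1 or siKLF7 replicate 2 was left out. The members' differences ranged over these omissions from -0.14 to 0.11 for CDC25B, -0.15 to 0.22 for PLK1, -0.02 to 0.30 for AURKA and -0.28 to 0.21 for CDC20, each changing sign; PLK1 stood at -0.05 without siKLF7 replicate 2, and CDC25B and CDC20 at 0.03 and 0.07 without siKLF7 replicate 1. CCNB2 ranged from 0.47 to 0.62 and CCNB1 from 0.35 to 0.61. With 3 arrays, the member count was 1, CCNB2, with a prior that had no trend (adjusted p = 0.055 for CCNB1 and 0.064 for CDK1), where 172 genes passed; quantile normalization gave 484 genes. The cause was not tested. With the replicate number as a block (replicate block), 0 members and 0 genes passed. Deviations of same-numbered arrays correlated at -0.04 across genes. Since scramble control replicate 1 stood apart, this correlation cannot tell whether the numbers paired the arrays.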
